A study of Mus musculus with 6 samples.

Results

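The genes described here are 8 early response genes of the mouse: Zfp36, Zfp36l1 and Zfp36l2, Btg1 and Btg2, and Ier2, Ier3 and Ier5. They were taken by symbol from the gene probes of the arrays, and all 8 genes were found, with 10 probes among 34967 gene probes in all. Zfp36l1 has 3 probes and each of the others has 1. The genes were chosen with the values of these arrays known, among them the difference between the groups and the readings of the single control replicates, so their values below are a description and no test is drawn from them.

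The study transfected neurosphere cultures, which are floating clusters of neural precursor cells, in 2 groups. The 3 anti-miR-335 cultures received a 2'-O-methyl-modified antisense oligonucleotide against the microRNA miR-335, and the 3 control cultures received a 2'-O-methyl-modified oligonucleotide named for EGFP, which the labels call nonsense. Both groups came from C57BL/6 mouse fetuses at embryonic day 12.5, from the dorsal telencephalon, and both grew in serum-free medium with bFGF and EGF (20 ng/ml each), LIF (0.15 ng/ml), heparin, progesterone and insulin-transferrin-selenium. The treatment is labelled 24, without a unit, and no level of miR-335 was among the values used here, so the block of the microRNA has no check. RNA was read on 6 CodeLink arrays of a single colour, and an intensity of 1 means a spot as bright as the median of its array.

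Cells switch on early response genes within minutes of a growth factor or stress signal, and several of the products shut the response down again. The proteins of the Zfp36 family, of which Zfp36 (tristetraprolin) is the best known, bind AU-rich elements in mRNA tails and bring in the CCR4-NOT complex, which removes the poly(A) tail and starts decay. Btg1 and Btg2 bind the deadenylase subunits of that complex and slow proliferation; in the embryonic mouse cortex Btg2, also called Tis21, marks precursors that are about to make neurons. Ier2 is a small nuclear protein, Ier3 modulates ERK signalling and cell survival, and Ier5 was shown in human cells to bring phosphatase 2A to its substrates. The oligonucleotide of the anti-miR-335 group pairs with miR-335, and the mature strands of this microRNA are printed with the seed, bases 2 to 8, in capitals, because the seed is what selects target mRNAs (RefSeq, GRCm38.p6, chr6:30741314-30741336 and chr6:30741354-30741375, plus strand).
mmu-miR-335-5p: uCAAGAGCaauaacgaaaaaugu
mmu-miR-335-3p: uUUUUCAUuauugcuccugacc

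Upstream sequence was available for 6 of the 8 genes, Zfp36, Zfp36l1, Btg1, Btg2, Ier3 and Ier5, as the 250 bases before the annotated gene start (RefSeq, GRCm38.p6). Those of Zfp36 and Btg2 are shown because these genes had higher intensities in the anti-miR-335 arrays, and that of Btg1 because it is the nearest relative of Btg2 and did not. Capitals mark matches, on either strand, to motifs of early response promoters and to the TATA box; CCAAT boxes, the most common motif searched, are left in lower case. The windows are chr7:28379229-28379478 on the minus strand for Zfp36, chr1:134079156-134079405 on the minus strand for Btg2 and chr10:96616751-96617000 on the plus strand for Btg1.
Zfp36: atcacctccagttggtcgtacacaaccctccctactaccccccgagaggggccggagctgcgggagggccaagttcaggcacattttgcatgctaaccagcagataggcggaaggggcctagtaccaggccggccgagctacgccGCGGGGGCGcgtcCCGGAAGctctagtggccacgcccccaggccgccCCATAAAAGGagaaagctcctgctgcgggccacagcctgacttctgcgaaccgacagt
Btg2: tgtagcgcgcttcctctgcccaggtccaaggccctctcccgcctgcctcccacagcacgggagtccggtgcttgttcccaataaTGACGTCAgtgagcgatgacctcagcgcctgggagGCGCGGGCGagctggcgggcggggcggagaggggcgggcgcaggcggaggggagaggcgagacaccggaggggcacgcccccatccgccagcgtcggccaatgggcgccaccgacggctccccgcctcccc
Btg1: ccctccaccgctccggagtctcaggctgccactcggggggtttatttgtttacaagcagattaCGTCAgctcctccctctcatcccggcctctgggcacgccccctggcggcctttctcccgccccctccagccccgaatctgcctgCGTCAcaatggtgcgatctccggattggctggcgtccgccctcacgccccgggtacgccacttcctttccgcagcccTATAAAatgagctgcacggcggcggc

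The Zfp36 window held a CArG box, the element bound by serum response factor, 58 to 49 bases before the gene start, a motif found in 1.47% of all 32851 windows of the same length. It also held an ETS core (CCGGAAG, in 6.91% of windows) and an Egr site (GCGNGGGCG, in 4.70%). The Btg2 window held a full cyclic AMP response element (TGACGTCA, in 1.55% of windows) 166 to 159 bases before the start, an Egr site and 2 CCAAT boxes (CCAAT, in 33.9% of windows). The Btg1 window held the CRE core without the full element (TGACG, in 17.8% of windows) at 2 places, a TATA box (TATAAA, in 12.4%) and 1 CCAAT box. The full element of Btg2 contains the CRE core on both strands. Of the windows not printed, that of Zfp36l1 held an AP-1 site (TGANTCA, in 6.75% of windows) and a TATA box that shares 1 base with a CCAAT box. Those of Ier3 and Ier5 held 2 CCAAT boxes each and no other motif searched. The Zfp36, Btg2 and Btg1 windows were 64.8%, 73.2% and 65.2% G or C, where the median of all windows was 52.4%. The shares over all windows are not matched for that. A match of letters is not a bound site, and no factor was measured at these promoters.

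**Figure D1:**
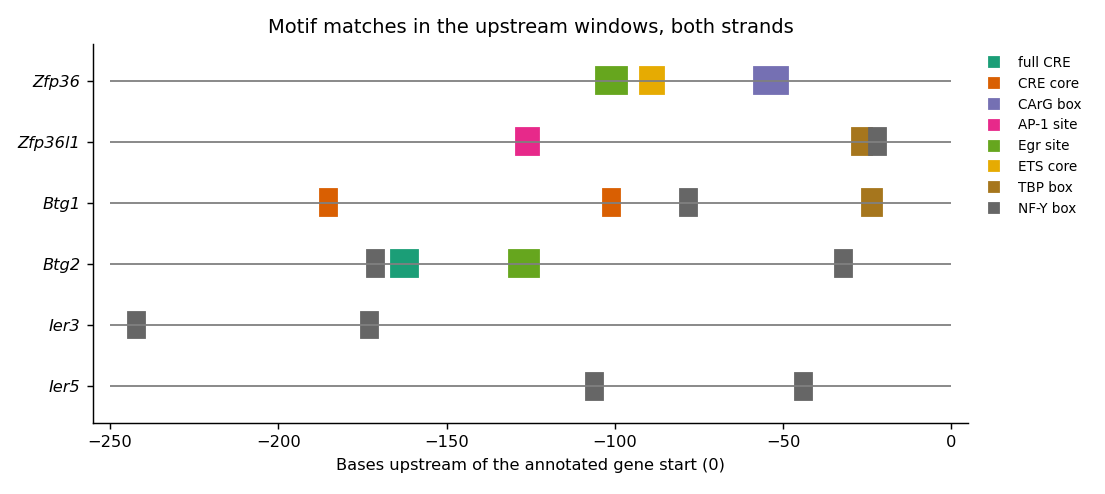
Motif matches in the 250 bases upstream of the annotated start of 6 genes, with distance from the start in bases on the x axis and 1 line per gene. Coloured boxes are matches on either strand (TBP box, the TATA box; NF-Y box, the CCAAT box); the CArG box is seen in Zfp36 alone and the full CRE in Btg2 alone.

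On the arrays, Zfp36, Btg2 and Ier2 had higher mean intensities in the anti-miR-335 cultures, while Zfp36l1 and Ier3 lay at like means, Btg1 and Ier5 were slightly lower, and Zfp36l2 was not well above background on any array. Control replicate 1 stood apart from the other controls for most of these genes, within or above the range of the anti-miR-335 arrays for Zfp36, Zfp36l1 and Ier3. For Ier5 it also lay within that range, as the lowest control, and for Btg1 above it, close to the other controls. By limma over all 34847 gene probes tested, 0 of the 10 probes passed an adjusted p of 0.05, where 0.00% of all probes did, and 3 of the 10 had an unadjusted p under 0.05, all higher, where 9.07% did (4.91% higher and 4.17% lower). Without control replicate 1, which was read apart because it differed, 3 of the 10 probes passed, those of Zfp36, Btg2 and Ier2, all higher in the anti-miR-335 arrays, where 3.17% of all 34654 probes passed (2.27% higher and 0.906% lower). The same 3 passed with weights for array quality, where 1.36% of probes did, and without the replicate 1 array of both groups, where 4.57% did. The weights were lowest for control replicate 1, at 0.37 against 0.78 to 2.25 for the other arrays. All of these alternatives therefore discount the same array and are not separate checks. Nothing is read from these counts about the genes, because the genes were chosen on the same arrays. The labels call the replicates independent without saying what was repeated, so the SDs given measure the spread between these samples only. The SEs are those of limma, which draws the variance of each probe toward that of probes of like intensity. Without control replicate 1 they are smaller for most of the genes, because the array left out was the one that differed. Those SEs overstate the precision.

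Zfp36 had intensities of 61.7, 73.3 and 83.4 on anti-miR-335 replicates 1, 2 and 3, against 79.0, 21.0 and 19.3 on control replicates 1, 2 and 3. The anti-miR-335 arrays and control replicate 1 lay together, far above the other 2 controls, so the groups overlap through that 1 array. The means were 72.8 ± 10.9 in the anti-miR-335 cultures and 39.8 ± 34.0 in the controls (SD, n = 3 each), a log2 difference of 1.19 ± 0.43 (SE). Against control replicates 2 and 3 alone the log2 difference was 1.84 ± 0.13, a ratio of means of 3.61. Control replicate 1 by itself was 3.92 times the mean of those 2 controls. In a bulk culture, more cells making an mRNA and more mRNA per cell cannot be told apart.

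Zfp36l1, the family member also called Tis11b, was highest on control replicate 1 and showed no difference between the group means. Its brightest probe read 37.3, 39.7 and 37.6 on the anti-miR-335 arrays, against 54.0, 31.1 and 27.7 on the controls. The anti-miR-335 values were close together and lay between control replicate 1 and the other 2 controls. The log2 difference was 0.09 ± 0.21 (SE) over all arrays and 0.38 ± 0.09 without control replicate 1. A second probe, made to another sequence record, gave 27.5, 26.8 and 24.7 against 41.9, 21.98 and 19.1, again between control replicate 1 and the other controls, with a log2 difference of 0.02 ± 0.24. The third and dimmest probe read 2.81, 2.08 and 2.49 against 2.35, 1.92 and 1.96. On it control replicate 1 lay within the range of the anti-miR-335 arrays and not above them, and the log2 difference was 0.24 ± 0.16. The probes therefore disagree on how far control replicate 1 lay from the other controls, by 0.88, 1.03 and 0.27 on the log2 scale from the brightest to the dimmest.

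Zfp36l2, also called Tis11d, was not well above background on any of the 6 arrays. Its readings were 0.402, 0.471 and 0.491 with anti-miR-335, against 0.475, 0.332 and 0.224 in control cultures, where the background limit ran from 0.492 to 0.692 over the 6 arrays. Every reading was below its own array's limit, that of anti-miR-335 replicate 3 only just. Both replicate 1 spots carried the scanner software's flag L. No fold is given for it.

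**Figure D2:**
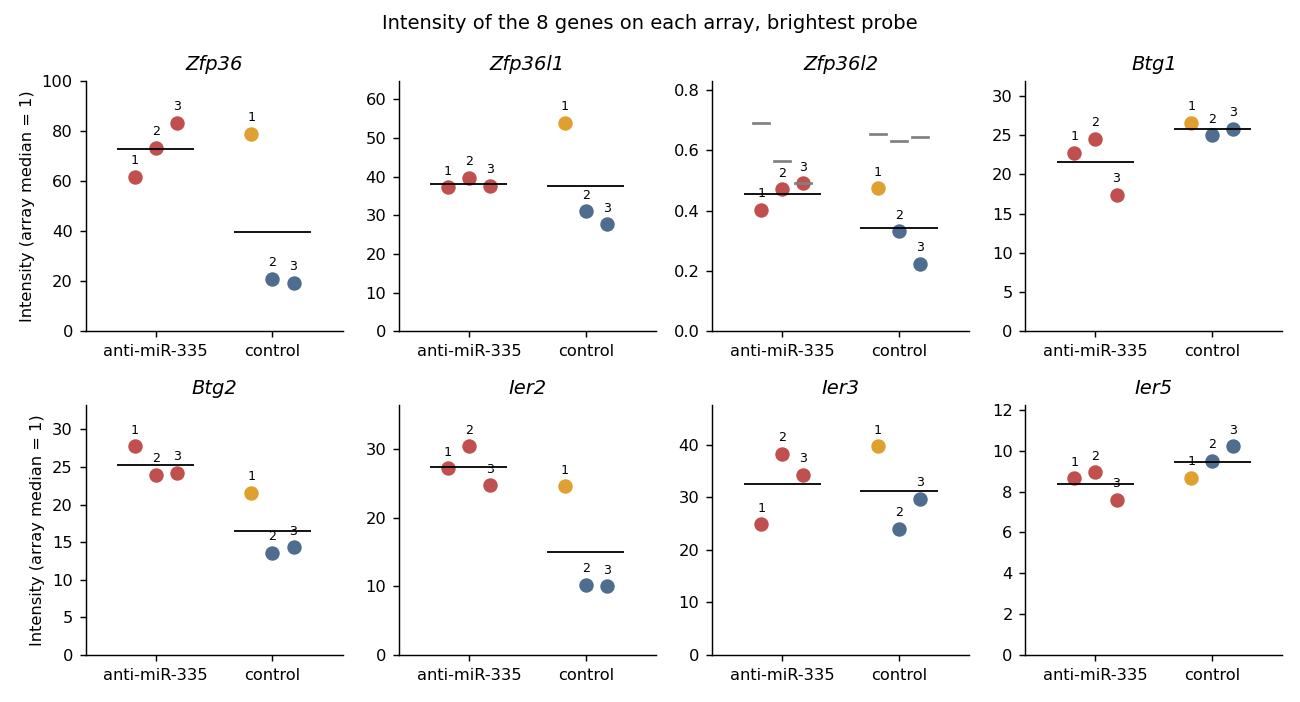
Intensity of the brightest probe of each gene, in units of the array median, in the anti-miR-335 cultures (left, red) and the controls (right; replicate 1 in yellow, replicates 2 and 3 in blue). Each point is 1 array with its replicate number, black lines are group means, grey ticks in the Zfp36l2 panel are the background limits of the arrays. Control replicate 1 lies with the anti-miR-335 arrays for Zfp36 at 79.0, and above them for Zfp36l1 at 54.0.

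The 2 antiproliferative genes differed from each other. Btg2, a p53 target as well as an early response gene, read 27.7, 24.0 and 24.3 on the anti-miR-335 arrays, against 21.6, 13.6 and 14.3 on the controls. Every anti-miR-335 array was above every control, with control replicate 1 between the 2 clusters and nearer to the anti-miR-335 arrays. The means were 25.3 ± 2.10 and 16.5 ± 4.44 (SD, n = 3 each), a log2 difference of 0.65 ± 0.17 (SE), and 0.86 ± 0.10 without control replicate 1.

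Btg1 read 22.7, 24.5 and 17.4 on the anti-miR-335 arrays, against 26.6, 25.0 and 25.8 on the controls. The groups did not overlap here either, but in the other direction, and the gap between anti-miR-335 replicate 2 and control replicate 2 was small. The means were 21.6 ± 3.73 and 25.8 ± 0.803, a log2 difference of -0.27 ± 0.13 (SE). For Btg1 the controls lay close together, replicate 1 included, which was 0.07 (log2) above the other 2, and anti-miR-335 replicate 3 was the lowest of the 6 arrays. Values that do not overlap were found on 2 of the 10 probes with the anti-miR-335 arrays higher (Btg2 and Ier2), where 7.46% of all gene probes show it, and on 1 with them lower (Btg1), where 7.25% do.

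Of the IER genes, which carry the name immediate early response, Ier2 showed the pattern of Zfp36. It read 27.2, 30.4 and 24.7 on the anti-miR-335 arrays, against 24.6, 10.2 and 10.02 on the controls. Control replicate 1 was just below the lowest anti-miR-335 array, and the other 2 controls were at less than 11 units. The means were 27.4 ± 2.85 and 14.9 ± 8.36 (SD, n = 3 each), a log2 difference of 1.01 ± 0.29 (SE), and 1.43 ± 0.10 without control replicate 1, a ratio of means of 2.71.

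Ier3 read 24.9, 38.3 and 34.3 on the anti-miR-335 arrays, against 39.7, 24.1 and 29.8 on the controls. The highest array of all was control replicate 1, and anti-miR-335 replicate 1 fell between control replicates 2 and 3, so no grouping of the arrays is clean for it. The log2 difference was 0.07 ± 0.20 (SE), and 0.26 ± 0.17 without control replicate 1. Ier3 is the 1 gene of the 8 whose anti-miR-335 values overlapped those of control replicates 2 and 3.

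Ier5 read 8.66, 8.95 and 7.59 on the anti-miR-335 arrays, against 8.67, 9.50 and 10.2 on the controls. Control replicate 1 lay within the anti-miR-335 range, as it did for Zfp36, and was the lowest of the controls. The means were 8.40 ± 0.717 and 9.46 ± 0.772 (SD, n = 3 each), a log2 difference of -0.17 ± 0.11 (SE). Of the 7 genes measured above background, Ier5 was the only one with control replicate 1 below the mean of the other controls, by a log2 difference of -0.18.

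**Figure D3:**
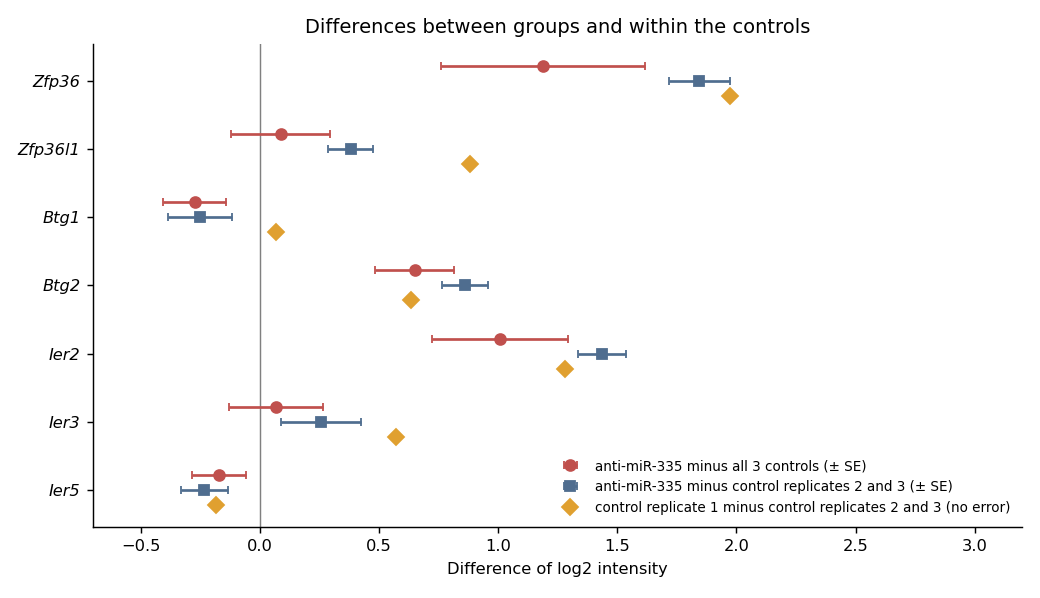
Differences of log2 intensity for the brightest probe of the 7 genes above background: anti-miR-335 minus all 3 controls (red circles, ± SE by limma), anti-miR-335 minus control replicates 2 and 3 (blue squares, ± SE) and control replicate 1 minus the mean of control replicates 2 and 3 (yellow diamonds, 1 array, no error). The blue and yellow values share the same 2 controls. The blue SEs overstate the precision, because control replicate 1 was left out for having differed. For Zfp36 the 3 values are 1.19, 1.84 and 1.97, the highest of each kind.

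Read one by one, control replicates 2 and 3 were close to each other for most of the genes above background, and replicate 1 lay apart for most. For Btg1 and Ier5 replicate 1 was only 0.07 and -0.18 (log2) from the mean of the other 2. For Ier3 control replicates 2 and 3 themselves differed by -0.31 (log2). Over the 7 genes above background the median size of the log2 difference between control replicates 2 and 3 was 0.11, where it was 0.13 over the 17843 gene probes above background on all arrays. Control replicate 1 lay above the mean of the other 2 by a median of 0.63 (log2) over these 7 genes, and by 0.11 over the 17843 probes. It was at least 1 (log2) above them on 3 of the 10 probes, those of Zfp36, Ier2 and the second of Zfp36l1, where 4.12% of all gene probes are. It was at least 0.5 above them on 7 of the 10, where 18.9% are, and the highest of the 6 arrays on 4 of the 10, where 25.3% are. Each of these 2 counts includes 2 probes of Zfp36l1, and the 7 include the probe of Zfp36l2 below background. When control replicate 1 is set aside, 7 of the 10 probes have every anti-miR-335 array above both remaining controls, where 21.1% of all probes do. Another 2 have every anti-miR-335 array below both, where 14.4% do. Here the 7 include the probe of Zfp36l2 below background and all 3 probes of Zfp36l1. The positive-control spots had medians of 3.89 to 4.47 on the anti-miR-335 arrays, against 3.49, 5.19 and 4.38 on the controls. Control replicate 1, at the high end for most of the 8 genes, was the lowest of the 6 arrays on these spots. The part of this in the values of the 8 genes was not tested.

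The spots themselves were bright on both arrays with scanner output used here, those of replicate 1. The Zfp36 spot averaged 4099 scanner units over a local background of 62 on anti-miR-335 replicate 1, against 4860 over 52 on control replicate 1. The Ier2 spot averaged 1838 over 59 against 1546 over 49, and the Btg2 spot 1871 over 57 against 1368 over 53. The Zfp36l2 spot averaged 84.3 over 58 against 83.9 over 55, the faintest of the 10. The other 9 probes carried flag G on both arrays.

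For the related gene lists that follow, the background over all gene probes with values on 6 arrays was 52.0% positive log2 differences, and 55.6% among probes above background on all arrays. At an unadjusted p under 0.05 by limma 4.91% of probes were higher and 4.17% lower, and without control replicate 1 the adjusted calls were 2.27% higher and 0.906% lower. The lists too were chosen with earlier results known, so their counts are a description.

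Family relatives outside the 8 genes, listed together with the namesake Ier3ip1, gave both directions. Of the 7 listed genes 6 were measured, 3 positive (Ier3ip1 among them) and 3 negative, with a median log2 difference of 0.03. By limma 0 passed (1 higher and 1 lower at an unadjusted p under 0.05, and 0 passed without control replicate 1). Tob2, a relative of the Btg proteins that also binds deadenylases, had a log2 difference of -0.35 ± 0.12 (SE), its anti-miR-335 arrays at 9.33 to 11.6 and its controls at 11.9 to 13.9. Zfp36l3, a Zfp36 relative of rodents, lay at 1.73 to 1.79 against 1.36 to 1.42, a difference of 0.36 ± 0.15. Ier3ip1, a protein of the secretory pathway that shares a name but no family with Ier3, was at 0.30 ± 0.18. Btg4 was not above background on any array.

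The machinery that these proteins act through showed small differences. Of the 34 genes of deadenylation and decay 33 were measured, 23 positive and 10 negative, with a median log2 difference of 0.08 where the median over all gene probes was 0.01. None passed by limma, 3 were higher and 0 lower at an unadjusted p under 0.05, and 2 higher and 0 lower passed without control replicate 1. The 3 of smallest p were the CCR4-NOT subunit Cnot2 at 0.43 ± 0.13 (SE), the exosome subunit Exosc9 at 0.33 ± 0.13 and the poly(A) ribonuclease Parn at 0.26 ± 0.12. The deadenylases that bind Btg proteins, Cnot7 and Cnot8, were at 0.22 ± 0.21 and -0.06 ± 0.11, and the scaffold Cnot1, which binds Zfp36 proteins, at -0.03 ± 0.13. Other proteins that bind AU-rich elements were measured for 14 of 15 entries, 10 positive and 4 negative, with a median of 0.10 and 0 past the threshold by limma (0 at an unadjusted p under 0.05). Without control replicate 1 Tial1 alone passed. Tial1 read 21.5, 23.5 and 23.9 on the anti-miR-335 arrays against 28.7, 15.6 and 14.6 on the controls, with the anti-miR-335 arrays between control replicate 1 and the other controls, as for the brightest Zfp36l1 probe. Its relative Tia1 was at 0.27 ± 0.23 and the ribonuclease Zc3h12a, above background on 4 of 6 arrays, at 0.38 ± 0.22 (log2, SE).

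Genes whose mRNAs carry AU-rich elements or are known to be bound by Zfp36 proteins were measured for 24 of 25 entries; the list also holds Ier3. Of the 24, 19 were positive and 5 negative, with a median log2 difference of 0.25, and 13 were above background on all arrays. By limma 0 passed, with 5 higher and 1 lower at an unadjusted p under 0.05, and 6 higher and 1 lower passed without control replicate 1. Those shares stand beside 4.91% higher and 4.17% lower of all probes, and 2.27% and 0.906% without control replicate 1. Fos, a subunit of the AP-1 factor and the gene of smallest p here, read 150, 186 and 106 on the anti-miR-335 arrays, against 83.8, 65.3 and 59.6 on the controls. Every anti-miR-335 array was above every control, with a log2 difference of 1.06 ± 0.20 (SE). Socs3, a feedback inhibitor of cytokine signalling, read 18.9, 31.4 and 33.5 against 22.1, 7.95 and 7.76, with control replicate 1 within the anti-miR-335 range and a log2 difference of 1.29 ± 0.36. The others higher without control replicate 1 were Vegfa, Plk2, Dusp1 and Mcl1. Plk3, a kinase of the stress response, had lower values with anti-miR-335, at 8.03 to 8.94 against 10.02 to 11.8, a log2 difference of -0.40 ± 0.11 (SE). Cxcl1 had a log2 difference of 1.12 ± 0.29 but was above background on 2 of 6 arrays only. Among the cytokine genes that Zfp36 is best known for, Tnf and Il6 were above background on 1 array of each group, and Il10, Il1b and Csf2 on none.

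Upstream signalling genes were measured for 18 of 23 entries, 14 positive and 4 negative, with a median log2 difference of 0.18 and 0 past the threshold by limma (1 higher and 0 lower at an unadjusted p under 0.05; 2 higher, Map2k1 and Srf, without control replicate 1). Map2k1, which encodes the ERK kinase MEK1, lay at 26.6 to 27.5 with anti-miR-335 against 19.3 to 25.8 in control cultures, 0.32 ± 0.12 higher on the log2 scale (SE). Srf, the factor that binds CArG boxes, read 11.8, 11.99 and 10.8 on the anti-miR-335 arrays against 11.8, 7.77 and 8.21 on the controls, where replicate 1 matched the treated cultures, and the difference was 0.34 ± 0.15. The ETS factor Elk1, a partner of Srf, was at 0.25 ± 0.13. Mapkapk2, which phosphorylates Zfp36 and blocks its action, was at -0.21 ± 0.42.

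Of the transcription factors of the same early response 20 of 21 measured were positive, where 52.0% of all gene probes were, with a median log2 difference of 0.52 and 0 past the threshold by limma (10 higher and 0 lower at an unadjusted p under 0.05, where 4.91% and 4.17% of all probes were; 8 higher and 0 lower without control replicate 1). Besides Fos, the genes of smallest p were Jun and Egr1. Egr1 read 28.3, 42.5 and 33.8 on the anti-miR-335 arrays against 26.7, 7.52 and 5.93 on the controls, a placing of control replicate 1 like that of Ier2. Jun read 51.5, 58.6 and 58.0 against 39.7, 24.5 and 26.4, with every anti-miR-335 array above every control and control replicate 1 in between.

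Partners of the Btg and Ier proteins and the p53 circuit were measured for 20 of 23 entries, 18 positive and 2 negative, with a median log2 difference of 0.16 and 0 past the threshold by limma (2 higher and 0 lower at an unadjusted p under 0.05; 3 higher and 0 lower without control replicate 1). The regulatory subunit gene Ppp2r2b, of the phosphatase that Ier proteins bind in human cells, had a log2 difference of 0.94 ± 0.11 (SE). The catalytic subunit gene Ppp2ca was at 0.03 ± 0.13 and Prmt1, a methyltransferase that binds Btg proteins, at 0.06 ± 0.14. Cdkn1a, like Btg2 a p53 target, lay at 26.2 to 38.5 with anti-miR-335 against 30.1 to 33.3 without it, a log2 difference of 0.05 ± 0.14 (SE). Gadd45a was at -0.32 ± 0.15 and the retinoblastoma gene Rb1 at 0.53 ± 0.19.

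**Figure D4:**
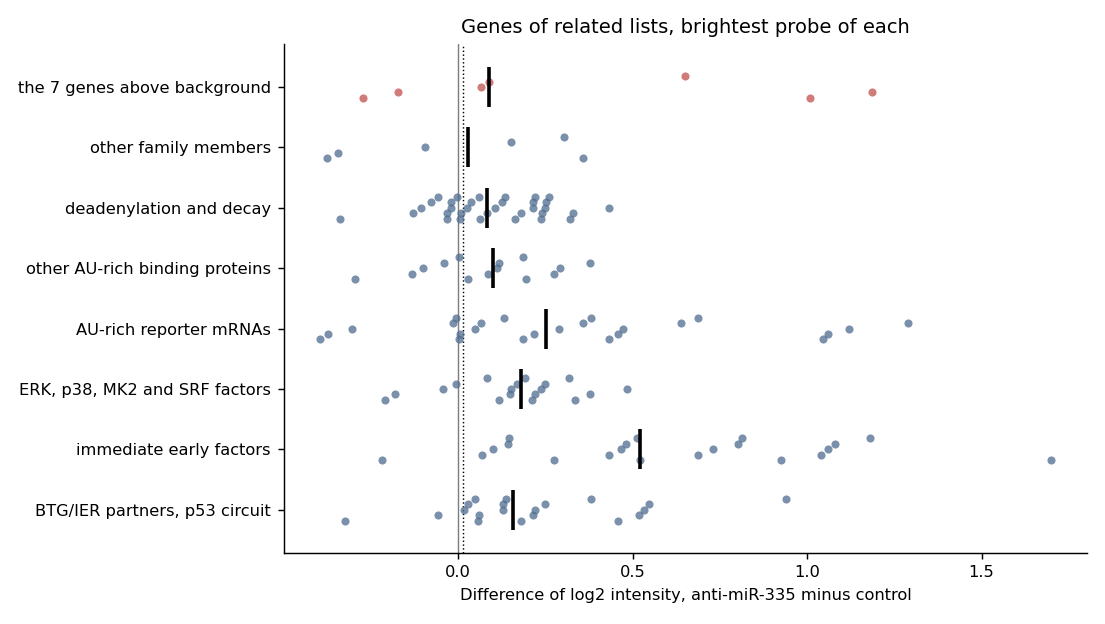
Difference of log2 intensity, anti-miR-335 minus control over all 6 arrays, for the brightest probe of each gene, with 1 line for the 7 of the 8 genes above background (red) and 1 for each related list (blue). Black bars are list medians and the dotted line is the median over all gene probes, 0.01. The lists share genes, and the medians run from 0.03 for other family members to 0.52 for immediate early factors, with 0.09 for the 7 genes. Unlike the red line, the lists keep genes below background. With Zfp36l2 included the median of the 8 genes is 0.28.

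The genes with the pattern most like that of the 8 were sought among 11589 other single-symbol probes at or above the array median, by Pearson's r with the mean centred log2 profile of the 8 genes over the 6 arrays, Zfp36l2 included. That profile was 0.12, 0.28 and 0.16 on the anti-miR-335 arrays, against 0.31, -0.42 and -0.46 on the controls. On this mean profile the arrays fall into 2 clusters that cut across the groups. Not all of the 8 genes share it: Zfp36 correlated at 0.63 to 0.97 with the others, but at -0.44 with Btg1 and -0.84 with Ier5. The r of a probe with the mean profile says how well it separates control replicates 2 and 3 from the other 4 arrays. The 8 probes of highest r, 0.998 to 0.994, were those of Fbxo42, Atpsckmt, Usp1, Acot9, Bnip3, Plk2, Nipsnap3b and Aamdc. Plk2, a kinase gene of the early response, read 11.5, 12.3 and 12.1 on the anti-miR-335 arrays against 13.0, 7.94 and 7.86 on the controls. Usp1, which encodes a deubiquitinase of DNA repair, read 18.6, 20.2 and 19.4 against 21.1, 14.5 and 14.6. All 8 probes were highest or second highest on control replicate 1, and their log2 differences between groups were 0.15 to 0.36.

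**Figure D5:**
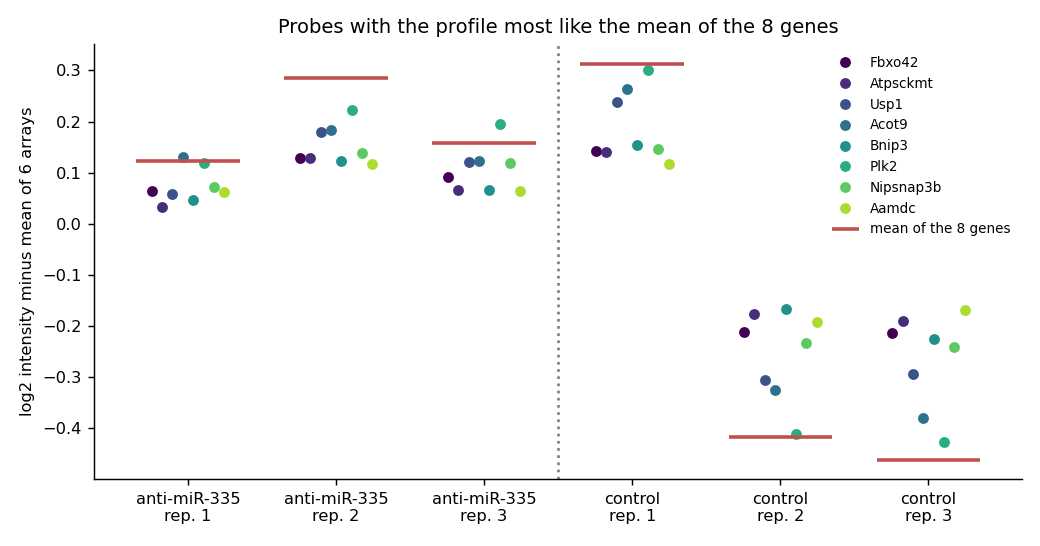
log2 intensity minus the mean of the 6 arrays for the 8 probes of highest likeness (points) and for the mean of the 8 genes (red bars), by array, anti-miR-335 left of the dotted line and controls right of it. Control replicate 1 sits with the anti-miR-335 arrays, the mean of the 8 genes being 0.31 there against -0.42 and -0.46 on the other controls.

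The cultures carried the markers of neural precursors: of 13 measured, 11 were above background on all 6 arrays, with summed levels of 385 to 415 in the anti-miR-335 arrays and 340 to 387 in the controls. The dorsal telencephalic marker Emx1 and the Notch effector Hes1 were not above background on any array. Hes5, another Notch effector, read 4.52, 4.41 and 4.39 with anti-miR-335, against 2.10, 2.89 and 2.82 in control cultures, with no overlap and a log2 difference of 0.79 ± 0.15 (SE). Fabp7 and Slc1a3, radial glial genes, were at 0.29 ± 0.12 and 0.30 ± 0.18. Of 8 neuronal markers 6 were above background on all arrays, with sums of 14.1 to 17.6 against 11.2 to 14.9. Among them Dcx, a marker of young neurons, read 3.64, 5.53 and 5.81 with anti-miR-335, against 2.56, 2.44 and 2.27 in control cultures. Its groups did not overlap, control replicate 1 lay with the other controls, and the log2 difference was 1.02 ± 0.18. Snap25 was at 0.35 ± 0.16 and Neurod1 at -0.47 ± 0.26. None of the precursor or neuronal markers passed by limma over all arrays. Without control replicate 1, Hes5, Pax6 and Slc1a3 passed among the precursor markers and Dcx among the neuronal markers. All were higher, where 2.27% of all probes passed higher.

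Most markers of other cell types were not above background on every array. Of 8 microglial markers Trem2 was above background on all arrays, Cx3cr1 on 5, P2ry12 on 3, Aif1 and Lyz2 on 1 each, and Ptprc, Itgam and Tyrobp on none. Their summed level was 6.28 to 7.19 in the anti-miR-335 arrays against 7.66 to 8.45 in the controls. That gap rests on Trem2, the brightest of them, which lay lower with anti-miR-335, at 3.19 to 3.42 against 4.64 to 5.08. Without Trem2 the sums of the 2 groups overlap. Of the 8, 3 were positive and 5 negative, with Cx3cr1 at 0.58 ± 0.25 (log2, SE). Of 8 endothelial markers Esam was above background on all arrays, Kdr on 5, Tek and Cldn5 on 3 each, Emcn on 2, and Pecam1, Cdh5 and Flt1 on none. Their sum was 3.02 to 5.09 against 3.60 to 4.69. Of 8 mesenchymal markers Pdgfrb was above background on 3 arrays, Rgs5 on 1 and the other 6, Col1a1, Col1a2 and Col3a1 among them, on none. Their sum was 2.24 to 2.54 against 2.45 to 3.06. Of 8 stress genes 7 were above background on all arrays, with sums of 170 to 202 against 160 to 177. The chaperone genes Dnajb1 and Hsp90aa1 were at 0.54 ± 0.11 and 0.32 ± 0.13, and Atf4 at 0.15 ± 0.12. None of these markers and stress genes passed by limma over all arrays. Without control replicate 1, Trem2 passed lower, where 0.906% of all probes did, and Dnajb1 higher, where 2.27% did. The part of these genes in the values of the 8 was not tested.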

How the data were processed

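Each deposited value is a spot's linear intensity after the authors' global median normalization in CodeLink software, per the labels; the file headers of 2 arrays, replicate 1 of each group, name CodeLink Expression Analysis 4.1.0.29054. On these arrays all 36032 (anti-miR-335) and 35976 (control) shared values equalled the scanner's normalized intensity within 0.0001, so scale and direction are settled there. Raw intensity was the spot mean minus the local background median. Array medians were 0.991 to 0.996. Symbols came from the platform annotation, updated through RefSeq (GRCm38.p6), which changed 0; 21615 of 34967 gene probes had 1 symbol, 681 several and 12671 none.

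Before the log2 step, low intensities were set to a floor of 0.163, the 5th percentile of the positive values. The groups were then fitted in limma 3.58.1 (lmFit, eBayes with intensity trend, two-sided, Benjamini-Hochberg over 34847 probes with at least 2 values per group). The above-background limit was the negative controls' median plus 3 scaled median absolute deviations; 59.5% to 66.8% of gene probes exceeded it. The number of arrays, 3 per group, limits the precision. A gene's brightest probe stood for it. Named from each gene list were at most the 3 genes of smallest p, with the marker lists described by their detected and undetected members. Other genes named were chosen after their values were seen. The members and lists were chosen with earlier results of these data known. The script was tested on simulated data with equal noise on all probes and arrays, set below the mean spread of the real values. No outlying array was simulated, so that test does not cover the case of control replicate 1. Alternatives are given in the closing section.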

Additional observations from a re-analysis of the deposited data

How the results depend on the processing

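The count of gene probes past an adjusted p of 0.05 by limma was 0 and stayed 0 with a replicate block, the floor at the 20th percentile or absent, no trend, or only brighter probes. It was 1 after quantile normalization. With array weights, which were lowest for control replicate 1, the count was 474 (3 of them probes of the 8 genes). Leaving out 1 array gave 0 to 1100, the highest without control replicate 1, with 0 to 3 of the 10 probes of the 8 genes; without the replicate 1 pair, an alternative chosen after seeing the data, it was 1571 and 3. With the replicate block 0 of the 10 probes passed, and the block changed no call. Deviations of same-numbered arrays correlated at -0.23, 0.04 and -0.26, so no likeness by replicate number was seen. With 3 arrays per group and control replicate 1 apart, these values cannot decide whether same-numbered arrays were handled together. The log2 difference of Zfp36 ran from 0.83 to 1.96 over the cases with arrays left out, Ier2 from 0.79 to 1.44, Btg2 from 0.52 to 0.86, Btg1 from -0.38 to -0.13 and Ier5 from -0.26 to -0.10, with no change of sign. Zfp36l1 ran from -0.10 to 0.40 and Ier3 from -0.10 to 0.44, turning sign without control replicate 2 or 3 and without control replicate 2 or anti-miR-335 replicate 2; without control replicate 1 they were 0.38 and 0.26. The height of control replicate 1 over the other controls, a median of 0.72 over the 8 genes with Zfp36l2 included, was 0.61 after quantile normalization and 0.60 with the floor at the 20th percentile. The cause was not tested. Signal over background limits Zfp36l2.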
